A study of Homo sapiens with 9 samples.

Results

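The 50 genes described here are interferon response genes and the 3 immunoproteasome catalytic subunit genes, a list of names taken across every library of the study. Each gene is represented by its transcript with the highest total count over the 9 libraries. Of the 50 names, 49 had a row in the count table of 20878 genes, and IFI44L was listed at 0 in the RPKM table only. In all, 44 passed the filter on low counts, among 14255 genes tested, and the other 6 (IFI44L, IFI44, XAF1, TRIM22, PSMB8 and PSMB9) are given as the files list them.

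Messenger RNA was sequenced from SW480, a human colorectal cancer cell line with defective APC, and from 2 lines derived from it. The APC line was clone D2.15, SW480 carrying pEF with myc-tagged APC. The CONTROL line was clone R38.7, SW480 carrying the empty pEF vector, and SW480 itself was the parental line, each line with 3 libraries. Polyadenylated RNA was taken 72 h after plating from plates set up in triplicate, so the tests below rest on the plate-to-plate spread within 1 line per group. The APC line was plated more thinly, at a stated 200000 cells against 335000 for CONTROL and SW480, and the APC and CONTROL clones, but not SW480, were grown in 1.5 mg/ml G418. The construct, the clone and the plating density cannot be told apart between APC and CONTROL, and against SW480 the same holds for G418.

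Library totals lay between 16456738 and 19358025 counts, so that 3 counts amount to 0.156 to 0.184 CPM (counts scaled to a common, TMM-adjusted library size). The APC transcript stood at 149.6, 146 and 139.7 CPM in the APC libraries, 48.1, 46.3 and 49.4 CPM in CONTROL and 46.6, 49.6 and 51.5 CPM in SW480, and the counts do not separate the construct from the cells' own gene. Summed epithelial markers (EPCAM, KRT8, KRT18, KRT19, CDH1 and VIL1) reached 6191 to 6361 CPM in APC, 5997 to 6298 CPM in CONTROL and 5373 to 6014 CPM in SW480, most of it KRT8 and KRT18. Of these 6 markers 4 were higher and 1 lower in APC against CONTROL, with EPCAM 9.01-fold, CDH1 15.1-fold and VIL1 10.7-fold higher. The 9 listed leukocyte markers with a row in the count table summed to 38.4 to 40.5 CPM in APC, 13.4 to 17.8 CPM in CONTROL and 21.0 to 22.3 CPM in SW480. In APC most of it was CORO1A (a mean of 30.6 CPM, against 7.94 CPM in CONTROL and 13.8 CPM in SW480). Of the 5 tested against CONTROL, CORO1A, CD14, CD68 and ITGAM were higher in APC, and HBA1, a haemoglobin gene, was lower. Against SW480, 3 were higher and 1 lower. Among all genes, 70.2% were called against CONTROL and 72.5% against SW480. PTPRC, which defines leukocytes, was listed at 0 RPKM in every library, as were the fibroblast genes COL3A1 and DCN. The 4 fibroblast and endothelial markers with a row summed to 12.9 to 14.1 CPM in APC, 13.8 to 16.8 CPM in CONTROL and 16.9 to 18.6 CPM in SW480, mostly COL1A1. Among them PDGFRB was 38.4-fold lower in APC than in CONTROL (log2 −5.26 ± 0.37), and PECAM1 held 4, 3 and 4 counts in APC and 0 in CONTROL and SW480. The part of these marker levels in the results was not tested.

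Interferons are secreted proteins, and those of type I are released by cells on sensing viral nucleic acid. Type I interferons bind the IFNAR1 and IFNAR2 chains and interferon gamma binds IFNGR1 and IFNGR2. The receptors act through JAK kinases and STAT proteins, and STAT2 and IRF9 belong to the complex that binds the interferon-stimulated response element in target promoters. The induced genes encode RNA sensors, antiviral effectors, the ubiquitin-like protein ISG15 and the immunoproteasome, in which PSMB8, PSMB9 and PSMB10 replace the catalytic subunits PSMB5, PSMB6 and PSMB7 and change the peptides made for display on MHC class I. Epithelial cells of the gut respond to interferons of all types.

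Most of the interferon response genes were higher in the APC line than in either other line, and the fitted change passed 2-fold for 19 of them against CONTROL and 21 against SW480, while a smaller group that includes IFI27, OAS2, IFITM2, MX2 and IFI6 was lower. Against CONTROL, 32 of the 44 tested members were higher in APC, 7 were lower and 5 stayed short of the threshold (an edgeR p under 0.05 after adjustment over all genes tested). In the same comparison 70.2% of all 14255 genes were called, 34.8% higher and 35.4% lower, so the called share of the members, 88.6%, has to be read against a background in which a call is common. Past 2-fold, 19 members were higher and 5 lower, where the background was 18.3% of all genes, 8.63% higher and 9.69% lower. GBP1, GBP2 and OASL, all among the 19, passed the filter on low counts through the APC libraries. These genes could hardly have been called lower in either APC comparison. Members had a median log2 fold change of 0.89, against −0.006 over all genes tested. In bulk RNA a difference in the share of cells that express a gene and a difference in RNA per cell cannot be told apart. Where groups are said below not to overlap, this describes the values of that gene only. The share of all genes without overlap is not given, so it does not set these genes apart.

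Against SW480, 34 of the 44 members were higher in APC, 9 were lower and 1 did not pass, with a median log2 fold change of 0.93 against −0.01 over all genes. The background of calls was 72.5%, with 35.6% higher and 36.9% lower. Past 2-fold, 21 members were higher and 6 lower, beside 7.91% and 11.1% of all genes (19.1% in either direction). Both APC comparisons use the same APC libraries, so they are not independent, and their values are given side by side below.

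**Figure D1:**
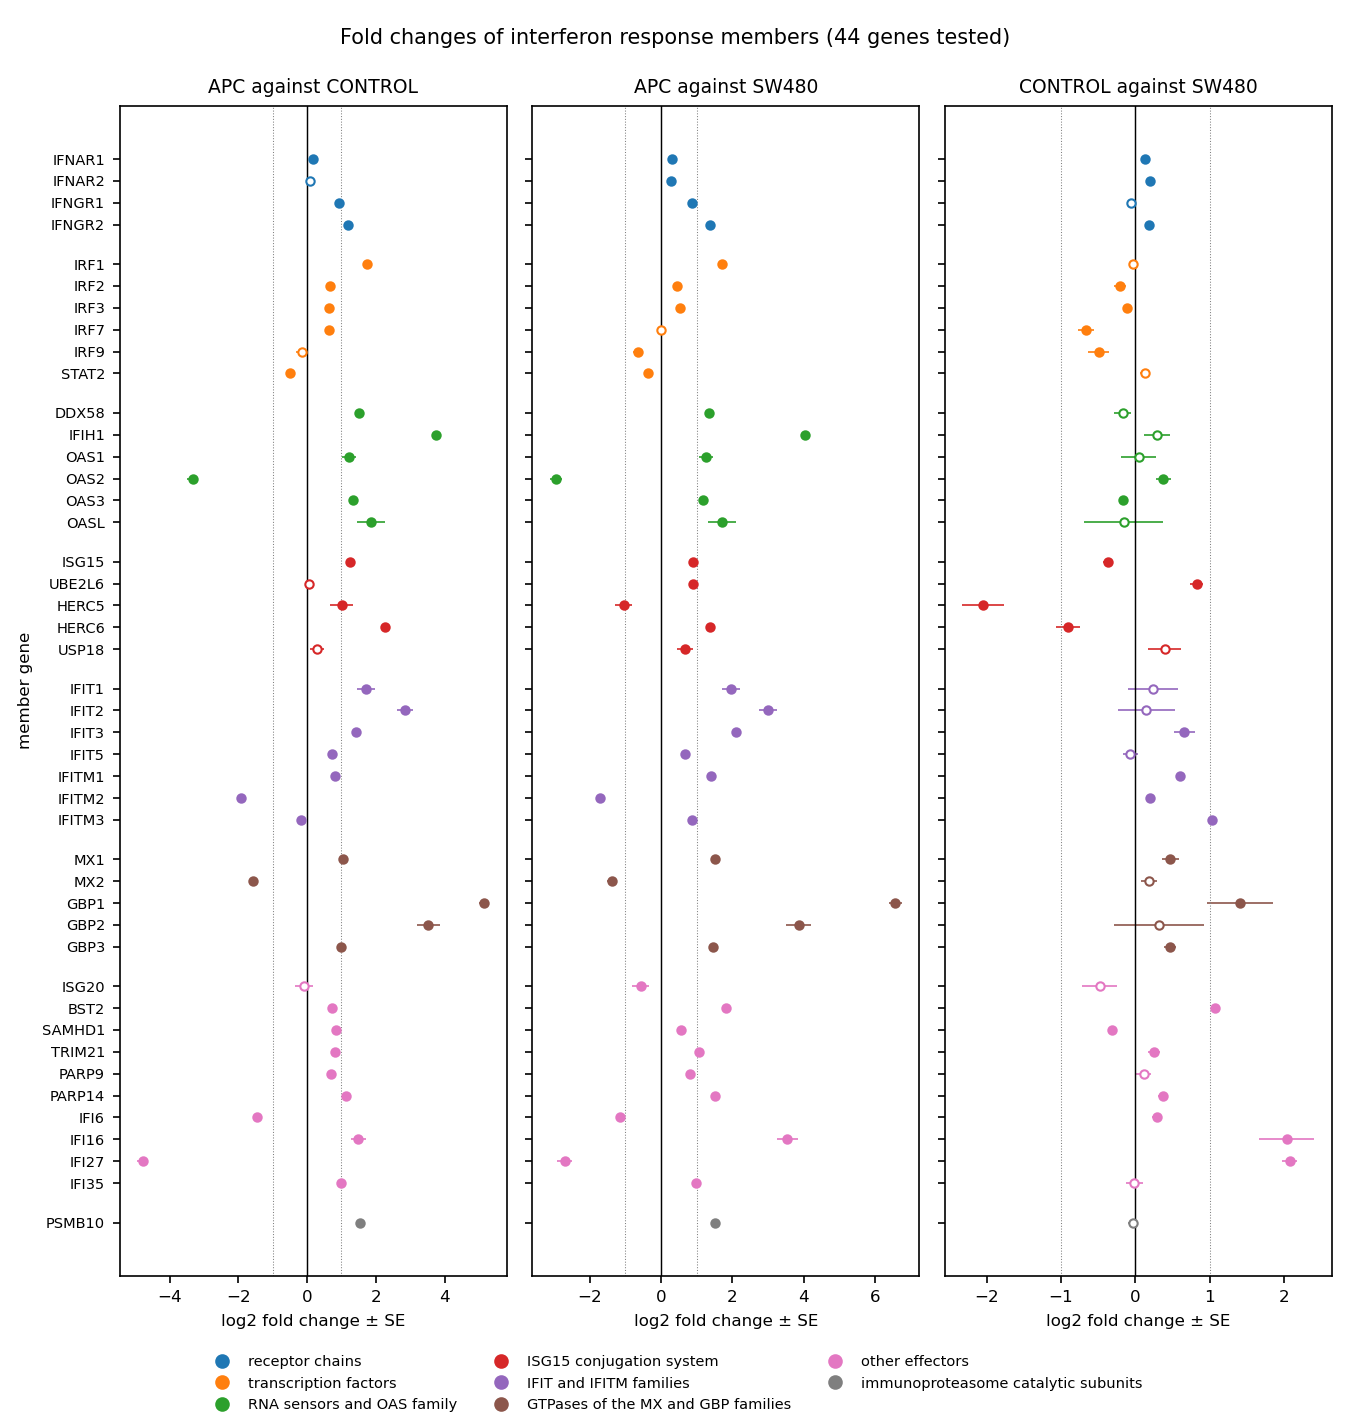
Log2 fold change (x axis, with its standard error) of the 44 tested members (y axis, grouped by role) for APC against CONTROL, APC against SW480 and CONTROL against SW480. Filled points passed the test, open points did not, and dotted lines mark 2-fold. GBP1 lies farthest to the right in both APC panels (5.15 ± 0.16 and 6.56 ± 0.19), while IFI27 (−4.79 ± 0.15) and OAS2 (−2.94 ± 0.17) lie farthest to the left.

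Sequence before the start of these genes was examined for the core of the interferon-stimulated response element, GAAA-NN-GAAA (N is any base) or, read on the other strand, TTTC-NN-TTTC. RefSeq promoter windows (GRCh38.p14, 250 bases before to 50 bases after the start) matched 38 of the 50 members. The motif was present in 23 of the 38 (60.5%), against 4.38% of 27305 genes and 3.57% of 35116 windows of the same length. The palindromic motif TTCNNNGAA, which STAT dimers bind, was present in 11 of the 38 (28.9%), against 9.38% of genes. Of the 20 tested members with a GAAA-NN-GAAA match, 16 were higher and 3 lower in APC against CONTROL. Of the 13 tested members with a window but no match, 10 were higher and 1 was lower. Over all genes tested, 34.8% were higher and 35.4% lower. The 12 members without a window include OAS2, IFITM2 and MX2, which were lower in APC, so these counts leave out part of the lower members. A match describes the letters only and is not evidence of a bound site.

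Promoters of 5 members are shown, chosen after the values were seen: 3 of genes higher in APC (GBP1, IFIH1 and PSMB10) and 2 of genes lower in APC (IFI27 and IFI6). Each runs 5′ to 3′ on the gene's strand up to the base before the start, and capitals mark every match to the motif. They lie at chr1:89065209-89065348 (minus strand, GBP1), chr2:162318685-162318844 (minus, IFIH1), chr16:67936851-67936970 (minus, PSMB10), chr14:94110616-94110735 (plus, IFI27) and chr1:27672193-27672352 (minus, IFI6) in GRCh38.p14.
GBP1: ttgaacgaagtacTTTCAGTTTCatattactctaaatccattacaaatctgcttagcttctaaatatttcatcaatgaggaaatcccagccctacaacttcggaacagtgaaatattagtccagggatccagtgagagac
IFIH1: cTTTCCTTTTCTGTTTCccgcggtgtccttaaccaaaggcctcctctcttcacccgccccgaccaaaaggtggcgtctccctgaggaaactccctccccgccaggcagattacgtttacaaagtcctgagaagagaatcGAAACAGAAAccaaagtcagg
PSMB10: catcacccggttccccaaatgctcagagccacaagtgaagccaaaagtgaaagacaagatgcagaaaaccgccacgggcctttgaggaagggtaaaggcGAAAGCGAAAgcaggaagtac
IFI27: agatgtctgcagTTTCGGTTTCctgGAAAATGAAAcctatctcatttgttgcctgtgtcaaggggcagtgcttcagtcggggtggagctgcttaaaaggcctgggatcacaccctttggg
IFI6: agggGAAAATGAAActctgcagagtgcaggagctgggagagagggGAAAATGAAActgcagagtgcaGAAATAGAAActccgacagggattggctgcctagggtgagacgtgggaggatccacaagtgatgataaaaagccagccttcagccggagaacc

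The GBP1 match began 127 bases before the start and the PSMB10 match 21 bases before it. IFIH1 held 3 matches, of which those at 159 and 153 bases overlap and the third began 21 bases before the start. IFI27 held 2, at 108 and 95 bases, and IFI6 held 3, at 156, 115 and 93 bases. Promoters with the motif thus stood before genes that were higher and genes that were lower in the APC line.

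Among the receptor chains, both chains of the interferon gamma receptor were higher in the APC line, and the chains of the type I receptor differed less. IFNGR1, the ligand-binding chain, had 45.2, 46.2 and 46.6 CPM in APC, 23.3, 25.6 and 23.6 CPM in CONTROL and 25.3, 23.7 and 26.0 CPM in SW480. The APC libraries lay above all others, with a log2 fold change of 0.93 ± 0.06 against CONTROL (SE, adjusted p = 6.3e-16) and 0.88 ± 0.06 against SW480. IFNGR2, the signalling chain, had 120.1, 133 and 128 CPM in APC, 54.9, 53.6 and 57.6 CPM in CONTROL and 51.1, 50.1 and 45.5 CPM in SW480. The APC level was 2.29-fold that of CONTROL (log2 1.2 ± 0.05, adjusted p = 4.4e-21) and 2.60-fold that of SW480. IFNAR1 had 98.0, 103 and 100.3 CPM in APC, 91.4, 86.9 and 89.3 CPM in CONTROL and 82.8, 80.1 and 80.9 CPM in SW480. The groups did not overlap, but the differences were small, 1.12-fold against CONTROL and 1.23-fold against SW480. IFNAR2 had 35.4, 33.5 and 34.9 CPM in APC, 32.1, 32.9 and 33.5 CPM in CONTROL and 28.5, 28.3 and 28.8 CPM in SW480. Its APC and CONTROL libraries overlapped and the difference did not pass (log2 0.08 ± 0.06, adjusted p = 0.22), whereas against SW480 it was 1.21-fold higher.

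Of the transcription factors, IRF1 differed most, while IRF9 and STAT2, which belong to the complex activated by type I interferon, were not higher in APC. IRF1, a factor induced mainly by interferon gamma, had 127, 127 and 129 CPM in APC, 38.9, 39.4 and 36.5 CPM in CONTROL and 40.2, 38.8 and 38.5 CPM in SW480. That is 3.33-fold and 3.26-fold higher in APC than in CONTROL and SW480 (log2 1.74 ± 0.05 and 1.70 ± 0.05, adjusted p = 1.9e-26 and 2.5e-26), and CONTROL and SW480 overlapped. IRF2, which binds the same sites as IRF1 and often opposes it, had 25.3, 27.1 and 25.1 CPM in APC, 14.0, 17.9 and 17.4 CPM in CONTROL and 18.7, 19.9 and 18.0 CPM in SW480. IRF3, the factor activated directly by viral sensing, had 147, 139 and 151 CPM in APC, 93.3, 96.6 and 89.5 CPM in CONTROL and 102, 99.9 and 101 CPM in SW480. Both were moderately higher in APC, by 1.58-fold and 1.57-fold against CONTROL and 1.37-fold and 1.44-fold against SW480.

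IRF7, which amplifies type I interferon production, had 14.9, 11.5 and 11.5 CPM in APC, 8.70, 8.23 and 7.22 CPM in CONTROL and 13.7, 11.8 and 12.7 CPM in SW480. Here the APC and SW480 libraries overlapped (log2 −0.01 ± 0.10, adjusted p = 0.91) and CONTROL lay below both, and the difference between APC and CONTROL passed (log2 0.65 ± 0.11, adjusted p = 2.9e-06). STAT2 had 28.1, 25.0 and 29.6 CPM in APC, 42.6, 35.4 and 37.8 CPM in CONTROL and 33.9, 37.5 and 35.0 CPM in SW480. It was lower in APC in both comparisons, with log2 fold changes of −0.49 ± 0.07 (adjusted p = 2.5e-07) and −0.36 ± 0.07 (adjusted p = 3.0e-05). IRF9 had 3.85, 3.01 and 3.39 CPM in APC, 3.81, 3.56 and 4.05 CPM in CONTROL and 4.68, 5.36 and 6.12 CPM in SW480. Its APC and CONTROL libraries overlapped (log2 −0.16 ± 0.15, adjusted p = 0.37), and APC was lower than SW480 (log2 −0.65 ± 0.14, adjusted p = 0.00013).

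The cytosolic RNA sensors were higher in the APC line. IFIH1, which encodes the sensor MDA5 of long double-stranded RNA, had 35.5, 34.9 and 35.0 CPM in APC, 2.90, 2.40 and 2.55 CPM in CONTROL and 2.26, 1.61 and 2.52 CPM in SW480. The APC level was 13.4-fold that of CONTROL (log2 3.74 ± 0.10, adjusted p = 2.8e-26) and 16.4-fold that of SW480 (log2 4.04 ± 0.10). DDX58, which encodes RIG-I, had 20.3, 20.1 and 19.3 CPM in APC, 7.62, 7.86 and 5.61 CPM in CONTROL and 7.65, 8.31 and 7.68 CPM in SW480. Fold changes in APC were 2.85 and 2.53 against CONTROL and SW480, again with no overlap, and CONTROL and SW480 overlapped.

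The OAS genes, whose enzymes make the second messenger that activates RNase L, differed in direction within the family. OAS1 had 3.68, 4.16 and 3.97 CPM in APC, 2.31, 1.60 and 1.14 CPM in CONTROL and 1.67, 1.88 and 1.34 CPM in SW480. OAS3 had 60.9, 60.0 and 64.8 CPM in APC, 24.8, 24.0 and 24.4 CPM in CONTROL and 26.8, 28.6 and 26.4 CPM in SW480. OASL, a relative without synthetase activity, was near the limit of detection with 21, 12 and 14 counts in APC, 4, 4 and 5 in CONTROL and 6, 3 and 6 in SW480. All 3 were higher in APC with no overlap, and their log2 fold changes against CONTROL were 1.22 ± 0.20 for OAS1, 1.34 ± 0.06 for OAS3 and 1.87 ± 0.41 for OASL (adjusted p = 1.4e-06, 5.3e-21 and 0.00014). OAS2 went the other way, with 1.10, 0.868 and 0.935 CPM in APC, 10.5, 8.97 and 9.77 CPM in CONTROL and 8.13, 7.66 and 6.71 CPM in SW480. It was 10.0-fold lower than in CONTROL (log2 −3.32 ± 0.16, adjusted p = 7.9e-19) and 7.69-fold lower than in SW480 (log2 −2.94 ± 0.17, adjusted p = 8.9e-17). Against SW480, OAS1 was 2.41-fold, OAS3 2.27-fold and OASL 3.27-fold higher in APC.

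**Figure D2:**
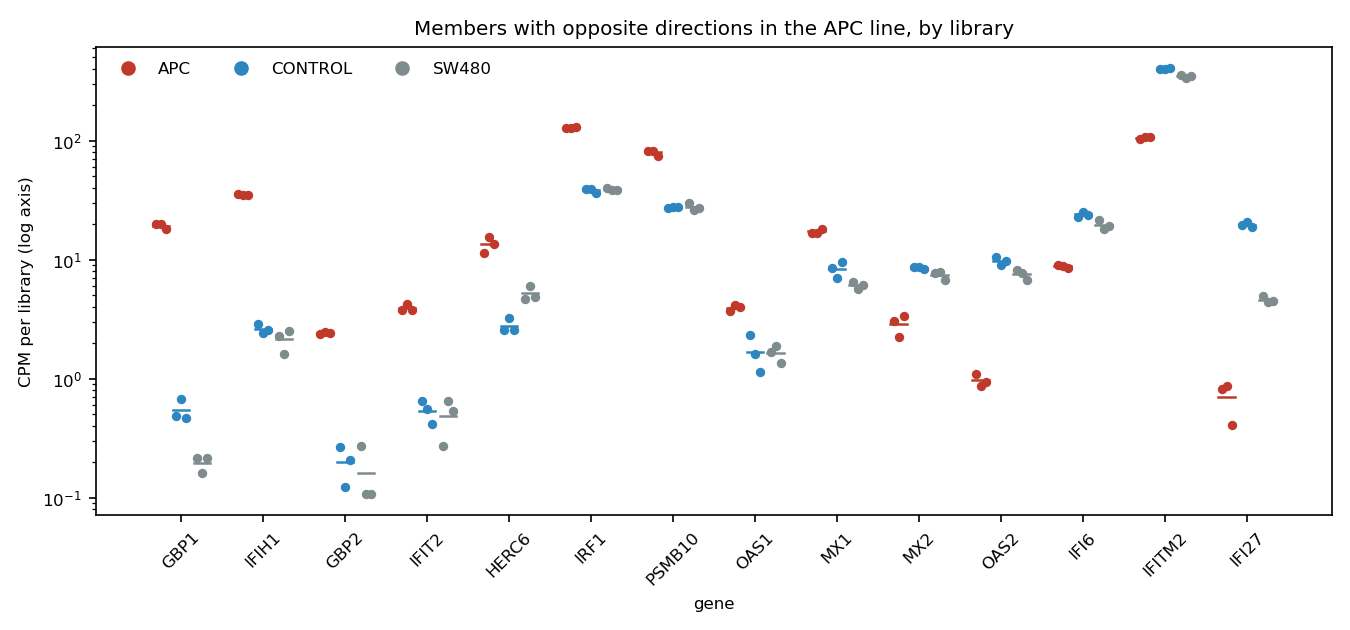
CPM per library (log axis) for 14 members, of which 9 were higher and 5 lower in APC. There is 1 point per library and a bar at the group mean. APC libraries are red, CONTROL blue and SW480 grey. GBP1, IFIH1, GBP2 and IFIT2 lie far above both other lines in APC, and IFI27, the gene at the right edge, stands at 0.70 ± 0.253 CPM in APC, 19.6 ± 1.03 CPM in CONTROL and 4.62 ± 0.295 CPM in SW480 (SD, n = 3).

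ISG15 is a ubiquitin-like protein that UBE2L6 and the ligase HERC5 conjugate to other proteins and that USP18 removes. ISG15 itself had 51.1, 53.6 and 50.9 CPM in APC, 21.0, 21.7 and 22.3 CPM in CONTROL and 29.8, 29.0 and 25.0 CPM in SW480. APC libraries held 2.39 times the CONTROL level (log2 1.26 ± 0.06, adjusted p = 8.8e-19) and 1.86 times that of SW480. HERC6, a HECT-type ligase that is the main ISG15 ligase in the mouse, had 11.4, 15.5 and 13.6 CPM in APC, 2.58, 3.26 and 2.55 CPM in CONTROL and 4.68, 6.05 and 4.89 CPM in SW480. The order was APC over SW480 over CONTROL, with log2 fold changes of 2.28 ± 0.14 against CONTROL and 1.37 ± 0.12 against SW480. HERC5, the human ISG15 ligase, was low, with 14, 19 and 18 counts in APC, 10, 10 and 6 in CONTROL and 38, 41 and 33 in SW480. SW480 lay highest, so APC was lower than SW480 (log2 −1.04 ± 0.24, adjusted p = 0.00028) and higher than CONTROL (log2 1.00 ± 0.34, adjusted p = 0.0089). The difference from CONTROL did not pass without CONTROL replicate 3 (log2 0.76, adjusted p = 0.067). UBE2L6, the conjugating enzyme, averaged 17.6 ± 1.00 CPM in APC, 16.9 ± 1.16 CPM in CONTROL and 9.56 ± 0.703 CPM in SW480 (SD, n = 3), and APC was higher than SW480 (log2 0.88 ± 0.09) while the difference from CONTROL did not pass. USP18, the deconjugating protease, averaged 2.26 ± 0.105 CPM in APC, 1.86 ± 0.154 CPM in CONTROL and 1.41 ± 0.386 CPM in SW480, and its difference from CONTROL did not pass (adjusted p = 0.23). Against SW480 it was higher (log2 0.68 ± 0.21, adjusted p = 0.0057), but not without SW480 replicate 1 (0.47, adjusted p = 0.064).

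The IFIT genes, whose proteins bind foreign RNA ends and block translation, were all higher in APC. IFIT1 had 44, 37 and 44 counts in APC, 11, 13 and 15 in CONTROL and 15, 12 and 7 in SW480. IFIT2 had 3.74, 4.22 and 3.74 CPM in APC, 0.644, 0.553 and 0.416 CPM in CONTROL and 0.269, 0.643 and 0.537 CPM in SW480. IFIT3, the partner that stabilises IFIT1, had 12.7, 11.9 and 13.3 CPM in APC, 4.19, 4.85 and 4.99 CPM in CONTROL and 2.96, 2.95 and 2.95 CPM in SW480. No APC library overlapped another group for these genes. Log2 fold changes against CONTROL were 1.71 ± 0.25 for IFIT1, 2.85 ± 0.24 for IFIT2 and 1.43 ± 0.11 for IFIT3 (adjusted p = 3.1e-07, 1.6e-12 and 5.4e-14). Against SW480 the same genes stood at 1.95 ± 0.26, 2.99 ± 0.24 and 2.10 ± 0.12. IFIT5 differed least, at 0.72 ± 0.09 against CONTROL and 0.66 ± 0.09 against SW480.

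The IFITM proteins sit in endosomal and plasma membranes and hinder virus entry, and against CONTROL IFITM1 was higher while IFITM2 and IFITM3 were lower. IFITM2 had 103, 108 and 108 CPM in APC, 403, 399.8 and 405 CPM in CONTROL and 358, 338 and 352 CPM in SW480. It was 3.80-fold lower in APC than in CONTROL (log2 −1.92 ± 0.04, adjusted p = 3.8e-30) and 3.29-fold lower than in SW480 (log2 −1.72 ± 0.04). IFITM1 had 121, 112 and 116 CPM in APC, 65.5, 67.4 and 66.4 CPM in CONTROL and 44.4, 45.5 and 41.2 CPM in SW480, so that APC was highest and SW480 lowest. IFITM3 had 341, 335 and 332 CPM in APC, 380.2, 389 and 372 CPM in CONTROL and 196, 177 and 182 CPM in SW480. For IFITM3 APC lay slightly below CONTROL (log2 −0.18 ± 0.04, adjusted p = 9.1e-05) and above SW480 (log2 0.86 ± 0.04). Per length, the 3 genes summed to 708 ± 2.06 RPKM in APC, 1069 ± 7.64 RPKM in CONTROL and 730 ± 25.7 RPKM in SW480 (SD, n = 3, the authors' values per length and library size). The share of IFITM2 in that sum was 17.9% ± 0.639 in APC, 45.4% ± 0.658 in CONTROL and 58.6% ± 0.695 in SW480. IFITM3 made up 62.1% in APC, 46.9% in CONTROL and 33.9% in SW480, and IFITM1 19.4% to 20.5% in the APC libraries and on average 7.63% in CONTROL and 7.47% in SW480. These genes have closely similar sequences and how reads matching several copies were counted is not given in the sources used here, so the split between them is uncertain.

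**Figure D3:**
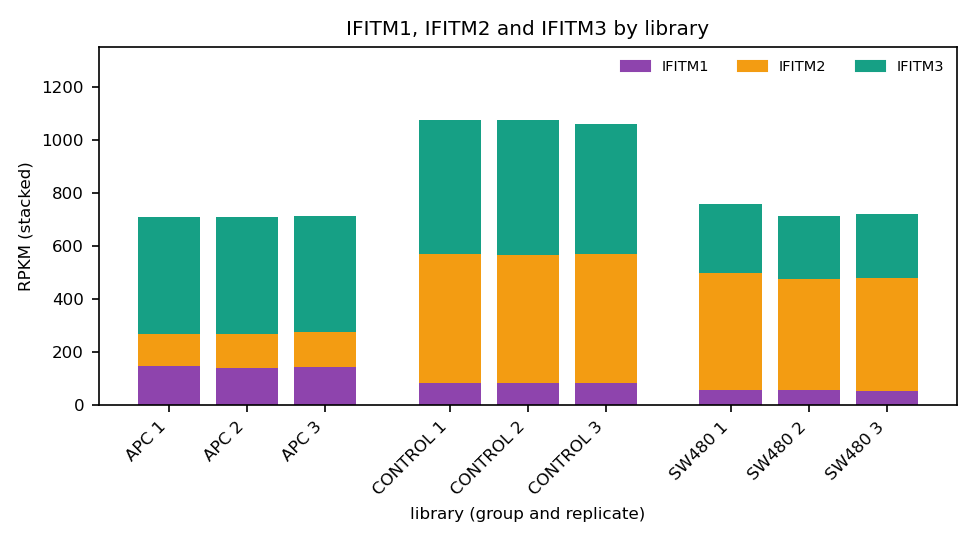
RPKM of IFITM1, IFITM2 and IFITM3, stacked for each of the 9 libraries (x axis, APC, CONTROL, then SW480). The IFITM2 segment is narrow in every APC library (a mean share of 17.9%) and wide in CONTROL (45.4%) and SW480 (58.6%), while the total height is similar in APC and SW480 (708 and 730 RPKM).

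The guanylate-binding protein genes, which encode large GTPases that attack membranes around intracellular pathogens and are induced chiefly by interferon gamma, were higher in APC for the 3 members listed (GBP1, GBP2 and GBP3), and GBP1 had the largest fold change among the 44 tested members in both APC comparisons. GBP1 had 19.8, 19.8 and 17.9 CPM in APC, 0.483, 0.676 and 0.468 CPM in CONTROL and 0.215, 0.161 and 0.215 CPM in SW480, the SW480 libraries holding 4, 3 and 4 counts. APC was 35.4-fold higher than CONTROL (log2 5.15 ± 0.16, adjusted p = 5.9e-25) and 94.2-fold higher than SW480 (log2 6.56 ± 0.19, adjusted p = 9.0e-26). CONTROL was also above SW480 (log2 1.41 ± 0.44, adjusted p = 0.008), a call that did not pass with limma on log2(RPKM + 1), where the log2 difference was 0.13 (adjusted p = 0.068). GBP2 had 43, 43 and 41 counts in APC, 5, 2 and 4 in CONTROL and 5, 2 and 2 in SW480. The levels were 11.5-fold and 14.4-fold higher in APC (log2 3.53 ± 0.33 and 3.85 ± 0.34), with CONTROL and SW480 levels close to 3 counts. GBP3 had 32.5, 33.4 and 31.6 CPM in APC, 16.1, 17.4 and 16.2 CPM in CONTROL and 11.5, 13.1 and 11.2 CPM in SW480, and log2 fold changes of 0.97 ± 0.07 and 1.44 ± 0.07 against CONTROL and SW480. GBP5, not a member, was barely detected, with 0, 1 and 2 counts in APC, 2, 2 and 0 in CONTROL and 0, 2 and 3 in SW480.

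The 2 MX genes, which encode dynamin-like antiviral GTPases, differed in opposite directions. MX1 had 16.7, 16.8 and 18.2 CPM in APC, 8.54, 7.0 and 9.51 CPM in CONTROL and 6.46, 5.68 and 6.07 CPM in SW480. MX2 had 3.02, 2.26 and 3.33 CPM in APC, 8.65, 8.66 and 8.26 CPM in CONTROL and 7.75, 7.93 and 6.77 CPM in SW480. MX1 was 2.05-fold higher than in CONTROL and 2.83-fold higher than in SW480 (log2 1.03 ± 0.09 and 1.50 ± 0.10). MX2 was 2.96-fold and 2.60-fold lower (log2 −1.57 ± 0.13 and −1.38 ± 0.14, adjusted p = 2.2e-12 and 7.4e-11). No APC library overlapped another group for either gene.

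Of the 10 other effectors tested, 7 were higher and 2 lower in APC against CONTROL, and 7 higher and 3 lower against SW480. The shares of all genes tested were 34.8% higher and 35.4% lower against CONTROL, and 35.6% and 36.9% against SW480. BST2, which tethers budding virions, had 127, 121 and 127 CPM in APC, 72.3, 78.1 and 75.6 CPM in CONTROL and 35.3, 36.2 and 35.6 CPM in SW480, a stepped order with no overlap between any groups. PARP14, an ADP-ribosyltransferase, had 90.5, 92.9 and 87.5 CPM in APC, 41.0, 37.5 and 44.4 CPM in CONTROL and 29.2, 32.1 and 33.8 CPM in SW480, in the same order. IFI16, a DNA sensor, was low at 3.79, 2.60 and 3.10 CPM in APC, 1.07, 1.04 and 1.25 CPM in CONTROL and 0.377, 0.214 and 0.215 CPM in SW480. The SW480 libraries held 7, 4 and 4 counts of IFI16. Log2 fold changes against CONTROL were 0.73 ± 0.04 for BST2, 1.14 ± 0.06 for PARP14 and 1.49 ± 0.21 for IFI16, and against SW480 they were 1.81 ± 0.05, 1.51 ± 0.06 and 3.53 ± 0.29. TRIM21, a cytosolic antibody receptor and ubiquitin ligase, had 26.0, 26.7 and 27.8 CPM in APC, 16, 15.2 and 14.3 CPM in CONTROL and 12.5, 13.1 and 12.6 CPM in SW480 (log2 0.82 ± 0.07 and 1.07 ± 0.07 against CONTROL and SW480). SAMHD1, a dNTP hydrolase, PARP9 and IFI35 were higher by 1.62-fold to 1.98-fold against CONTROL and 1.46-fold to 1.96-fold against SW480. ISG20, an RNA exonuclease, stood at 1.18 ± 0.194 CPM in APC, 1.24 ± 0.328 CPM in CONTROL and 1.75 ± 0.160 CPM in SW480 (SD, n = 3), lower than SW480 (log2 −0.57 ± 0.24, adjusted p = 0.033) and overlapping CONTROL. That call did not pass without APC replicate 1 or 2 (−0.52 and −0.48, adjusted p = 0.091 and 0.11), without SW480 replicate 2 or 3 (−0.49 and −0.58, adjusted p = 0.10 and 0.053), with DESeq2 (−0.56, adjusted p = 0.12) or with counts summed over transcripts (−0.56, adjusted p = 0.054).

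IFI27 and IFI6, both encoding small membrane proteins of the same family, were lower in APC. IFI27 had 0.825, 0.868 and 0.409 CPM in APC, 19.5, 20.7 and 18.7 CPM in CONTROL and 4.95, 4.39 and 4.51 CPM in SW480. It was 27.6-fold lower in APC than in CONTROL (log2 −4.79 ± 0.15, adjusted p = 2.8e-24) and 6.51-fold lower than in SW480 (log2 −2.70 ± 0.21, adjusted p = 1.2e-13). The CONTROL level was 4.23-fold above that of SW480. IFI6 had 9.02, 8.79 and 8.47 CPM in APC, 22.9, 24.9 and 23.9 CPM in CONTROL and 21.3, 18.0 and 19.3 CPM in SW480, 2.72-fold and 2.23-fold lower in APC (log2 −1.45 ± 0.08 and −1.16 ± 0.09).

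Members below the filter were read as summed counts over the 3 libraries of a group, with exact 95% intervals that cover counting error only. XAF1, a pro-apoptotic gene, held 7, 16 and 10 counts in APC, 0, 1 and 1 in CONTROL and 1, 0 and 1 in SW480. Its sums of 33 in APC, 2 in CONTROL and 2 in SW480 gave ratios of 17.0 (4.35 to 146) against CONTROL and 17.5 (4.48 to 151) against SW480. TRIM22, another ubiquitin ligase, held 9, 10 and 7 counts in APC, 3, 0 and 5 in CONTROL and 1, 0 and 0 in SW480, a ratio of 27.6 (4.54 to 1132) for APC over SW480. IFI44 had 3 counts in APC in total and 0 in both other lines, too few for a fold change.

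PSMB10 was the immunoproteasome subunit whose level could be read, and it was higher in the APC line. PSMB10, which replaces PSMB7, had 81.9, 81.8 and 74.8 CPM in APC, 26.9, 27.5 and 27.6 CPM in CONTROL and 30.0, 26.3 and 27.3 CPM in SW480. APC lay above all other libraries, 2.91-fold over CONTROL (log2 1.54 ± 0.06, adjusted p = 1.0e-22) and 2.85-fold over SW480 (log2 1.51 ± 0.06), while CONTROL and SW480 overlapped. Its counterpart PSMB7 averaged 225 ± 8.14 RPKM in APC, 245 ± 1.19 RPKM in CONTROL and 233 ± 5.69 RPKM in SW480 (SD, n = 3). PSMB10 made up 23.5% ± 0.281 of the RPKM of the pair in APC, 8.91% ± 0.0596 in CONTROL and 9.61% ± 0.833 in SW480. The other constitutive subunits, PSMB5 and PSMB6, had log2 fold changes of −0.04 ± 0.04 (not passed) and −0.19 ± 0.04 against CONTROL and of 0.20 ± 0.04 and −0.28 ± 0.04 against SW480, and PSMB7 −0.11 ± 0.04 and −0.02 ± 0.04 (the second not passed).

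PSMB8 and PSMB9 could not be read from these counts. PSMB8 had 16 rows, 2 transcripts with 8 copies each, and every row was at 0 in every library. PSMB9 had 8 rows, of which the best held 7 counts in APC, 1 in CONTROL and 0 in SW480. Summed over its 8 rows, PSMB9 held 20 counts in APC, 1 in CONTROL and 0 in SW480, a sum that may hold a read more than once. BRD2, a widely expressed gene that is likewise listed many times (35 rows), reached at most 14 counts over all 9 libraries in any row. Over the 128 genes listed 6 or more times per transcript, 115 of them on chromosome 6 in RefSeq, the best row had a median total of 1.0 count and 87.5% had on average at most 3 counts per library. Among 20434 genes listed once per transcript the median was 1338.5 and the share 26.8%. PSMB10 had 1 row.

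**Figure D4:**
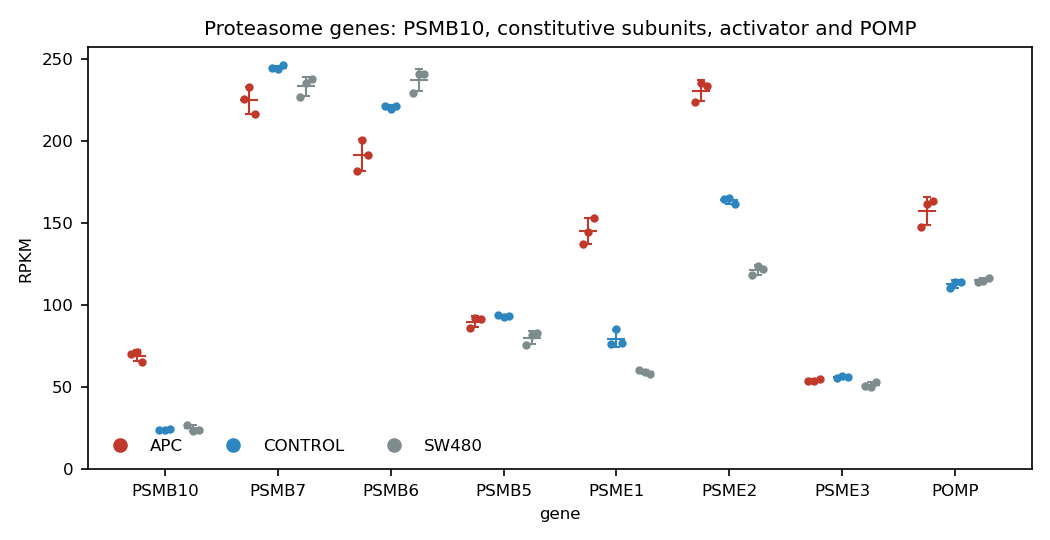
RPKM per library (points) with mean and SD (bars) for PSMB10, the constitutive subunits PSMB7, PSMB6 and PSMB5, the activator genes PSME1, PSME2 and PSME3, and the assembly factor POMP, in APC (red), CONTROL (blue) and SW480 (grey). PSMB10 stands at 69.1 ± 3.20 RPKM in APC, 23.9 ± 0.242 in CONTROL and 24.8 ± 1.79 in SW480, and PSME1 and PSME2 are also highest in APC, while PSMB5 and PSME3 lie close together in all 3 lines.

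The other proteasome genes examined had smaller fold changes than PSMB10 in both APC comparisons. PSME1 and PSME2, the 2 subunits of the interferon-inducible activator, averaged 145 ± 8.05 and 231 ± 6.15 RPKM in APC, 79.5 ± 4.94 and 164 ± 2.08 RPKM in CONTROL and 59.2 ± 1.36 and 121 ± 2.88 RPKM in SW480 (SD, n = 3). Their log2 fold changes were 0.88 ± 0.04 and 0.51 ± 0.04 against CONTROL and 1.32 ± 0.05 and 0.96 ± 0.04 against SW480. POMP, a proteasome assembly factor, was 1.41-fold and 1.40-fold higher. Of 11 other core genes, 5 were higher and 5 lower against CONTROL, none past 2-fold, with PSMA7 highest (0.37 ± 0.04) and PSMB3 lowest (−0.72 ± 0.04). Against SW480, 7 were higher and 1 lower. These counts stand beside calls for 70.2% of all genes tested against CONTROL and 72.5% against SW480.

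Other genes of the pathway, listed with earlier results of these data known, were examined beside the members. No interferon gene passed the filter: of the ligand names, IFNE held 2, 2 and 2 counts in APC, 3, 1 and 2 in CONTROL and 1, 3 and 1 in SW480, IFNL1 at most 2 counts in any library and IFNK 0. Of the 10 kinases, STATs and inhibitors, 6 were higher and 3 lower against CONTROL and 7 and 3 against SW480. Calls were common among all genes tested, at 70.2% against CONTROL and 72.5% against SW480. STAT3 was 2.45-fold and 2.44-fold higher in APC, and the inhibitor SOCS3 1.99-fold and 1.65-fold. JAK2, the kinase on IFNGR2, was lower in APC (log2 −0.45 ± 0.11 and −0.52 ± 0.11), as was the kinase TYK2 on IFNAR1 (log2 −0.17 ± 0.05 and −0.32 ± 0.05).

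Of 5 other IRF genes tested, 2 were higher and 3 lower in each APC comparison. IRF8, better known from myeloid cells, had 6.16, 5.55 and 5.38 CPM in APC, 1.13, 1.11 and 1.09 CPM in CONTROL and 0.862, 0.536 and 0.967 CPM in SW480, beside the leukocyte marker sums given above. IRF5, a factor that acts downstream of Toll-like receptors, was lower in APC (log2 −1.47 ± 0.11 and −1.25 ± 0.11). Among 10 sensing adaptors and kinases, 8 were higher and 1 lower against CONTROL and 6 and 2 against SW480, with IKBKE at 1.30 ± 0.06 and 1.05 ± 0.06 and TBK1, its relative, at −0.87 ± 0.06 and −0.85 ± 0.06. Of 26 other interferon-induced genes tested, 23 were higher and 2 lower against CONTROL and 22 and 1 against SW480, with medians of 0.97 and 1.12 on the log2 scale. For each of these lists the background was 34.8% of all genes higher and 35.4% lower against CONTROL. Against SW480 it was 35.6% and 36.9%, and the medians over all genes were −0.006 and −0.01. LGALS3BP, a secreted glycoprotein gene, was 2.49-fold and APOL6 3.08-fold higher in APC than in CONTROL, whereas WARS, a tRNA synthetase gene induced by interferon gamma, was lower (log2 −0.41 ± 0.04). CXCL10, a chemokine gene of the same interferon-induced list that was named after its values were seen, held 17, 25 and 19 counts in APC, 0, 0 and 0 in CONTROL and 0, 0 and 0 in SW480. CXCL10 passed the filter on low counts through the APC libraries alone, so it could only be called higher and no test is given. Its place among the 23 and 22 higher genes above was fixed in the same way. Against a floor of 3 counts per library it was at least 6.96-fold higher in APC than in CONTROL and at least 7.22-fold higher than in SW480.

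**Figure D5:**
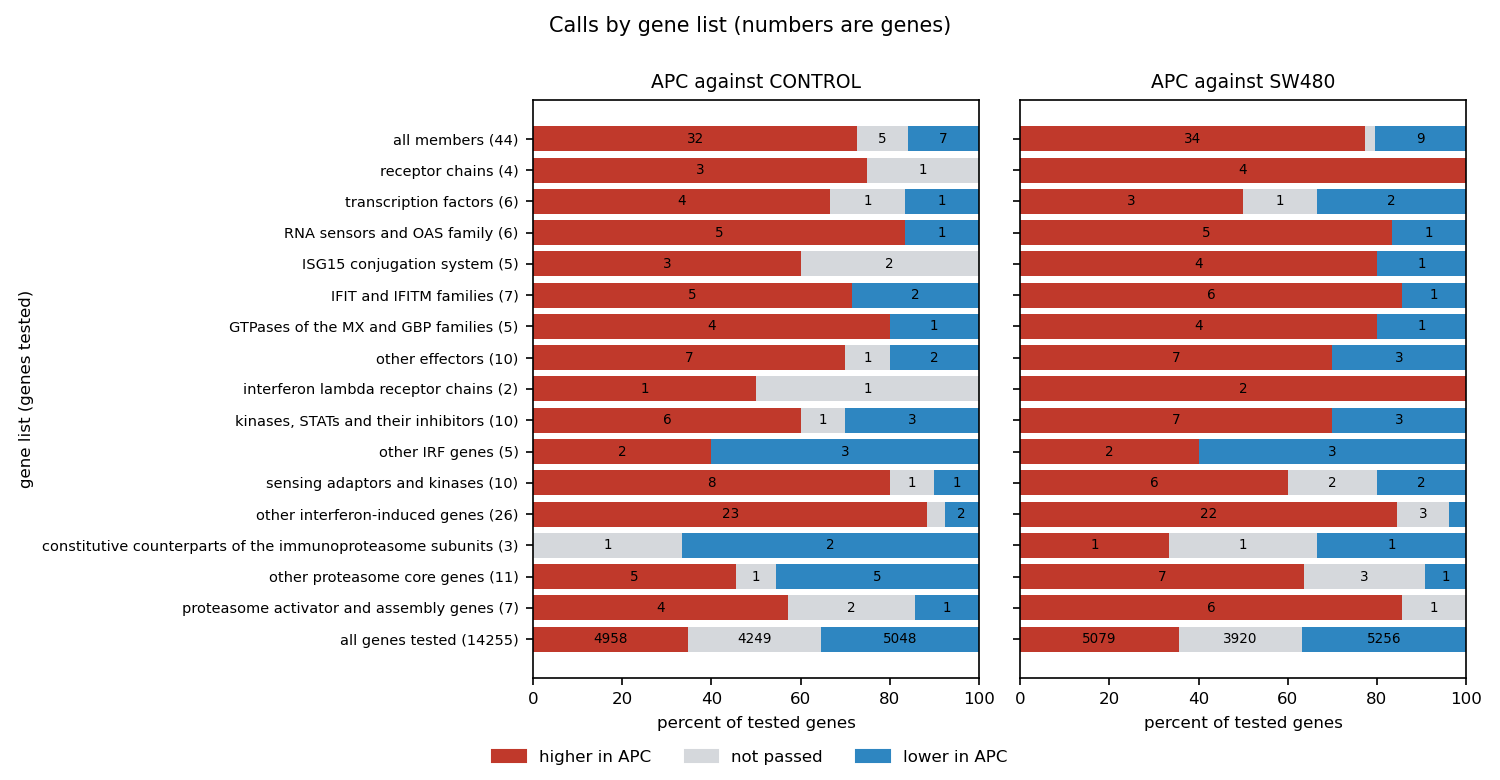
Percent of tested genes (x axis) called higher in APC (red), not passed (grey) or lower in APC (blue) for each gene list (y axis, genes tested in brackets), against CONTROL and against SW480. Numbers in the bars are genes. The bar of all members is mostly red (32 and 34 of 44), and the bottom bar of all 14255 genes holds nearly equal red and blue parts.

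The empty-vector line and the parental line also differed at these genes, with smaller changes. Of the 44 members, 18 were higher in CONTROL, 9 were lower and 17 did not pass, where 50% of all genes were called, 25.3% higher and 24.7% lower. The share of members called, 61.4%, was above that background, and the excess lay on the higher side (18 of 44 members, beside 25.3% of all genes). The median log2 fold change was 0.16 against −0.006 over all genes. Past 2-fold, 5 members were higher (IFI27, IFI16, GBP1, BST2 and IFITM3) and 1, HERC5, was lower, beside 1.68% and 3.22% of all genes (4.9% in either direction). IFI27 was 4.23-fold higher in CONTROL than in SW480 (log2 2.08 ± 0.10, adjusted p = 7.6e-18), IFI16 4.11-fold, BST2 2.11-fold and IFITM3 2.05-fold. HERC5 was 4.13-fold lower in CONTROL (log2 −2.05 ± 0.28, adjusted p = 2.8e-07), HERC6 1.88-fold and IRF7 1.59-fold. Of the members higher in APC, IRF1, PSMB10, IFNGR1, DDX58 and IFIH1 did not pass between CONTROL and SW480 (log2 −0.03 ± 0.05, −0.03 ± 0.06, −0.05 ± 0.06, −0.17 ± 0.11 and 0.30 ± 0.18).

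Several small calls of CONTROL against SW480 rested on 1 library, and some of them on the method. IFNAR1 (log2 0.13 ± 0.04) and TRIM21 (log2 0.25 ± 0.08) did not pass without CONTROL replicate 1 (0.12 and 0.21, adjusted p = 0.055 and 0.054), and IFNAR1 did not pass with limma on log2 RPKM with either pseudocount (adjusted p = 0.053 in both). IFNGR2 (log2 0.18 ± 0.05) did not pass without CONTROL replicate 3 (0.15, adjusted p = 0.051) or SW480 replicate 3 (0.13, adjusted p = 0.056). IRF2 (log2 −0.21 ± 0.08) did not pass without CONTROL replicate 1 (−0.10, adjusted p = 0.33) or SW480 replicate 2 (−0.17, adjusted p = 0.14), nor with DESeq2 (adjusted p = 0.088) or summed transcripts (adjusted p = 0.070). IRF3 (log2 −0.12 ± 0.04) did not pass without CONTROL replicate 1 (−0.12, adjusted p = 0.052) or 3 (−0.09, adjusted p = 0.13), nor with DESeq2 (adjusted p = 0.052). OAS3 (log2 −0.16 ± 0.06) did not pass without CONTROL replicate 2 or 3 (−0.15 and −0.16, adjusted p = 0.083 and 0.069) or SW480 replicate 2 (−0.12, adjusted p = 0.14), nor with DESeq2 (adjusted p = 0.087) or without the filter on low counts (adjusted p = 0.054). STAT2 (log2 0.13 ± 0.07, adjusted p = 0.11) passed without CONTROL replicate 2 (0.18, adjusted p = 0.035), and ISG20 (log2 −0.48 ± 0.23, adjusted p = 0.087) passed with limma (adjusted p = 0.022 and 0.030 with the larger and smaller pseudocount).

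Compared per length, IFITM3 was the most abundant member in APC at 439.6 ± 1.69 RPKM, followed by IFITM1 at 142 ± 4.41, IFITM2 at 127 ± 4.61 and BST2 at 116 ± 2.95 RPKM (SD, n = 3). IRF3, PSMB10 and ISG15 came next in APC at 72.3 ± 3.04, 69.1 ± 3.20 and 68.1 ± 2.26 RPKM, neighbours that lie about as close as their SDs. In CONTROL, IFITM3 and IFITM2 stood together at 502 ± 10.5 and 486 ± 4.35 RPKM, and in SW480 IFITM2 led at 428 ± 12 RPKM. GBP1, in spite of its large fold change, reached only 5.50 ± 0.283 RPKM in APC, against 0.157 ± 0.0329 RPKM in CONTROL and 0.0577 ± 0.00903 RPKM in SW480.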

How the data were processed

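Transcript counts and RPKM values were analysed as the authors deposited them. The deposited counts are raw read counts per transcript (39276 rows), and the authors' RPKM values equal count over length and library size within 0.0001 relative difference in 100% of values. Reads were processed with Trimmomatic, TopHat and GATK on hg19, per the submitters' processing notes; no counting tool, annotation or strandedness is given there, so overlapping and antisense genes cannot be told apart. One transcript per gene was kept, the one with the highest total count (21 members had more than 1), and 62 of 65 gene names turned into dates were restored. The 9 libraries were fitted together by the robust quasi-likelihood method of edgeR (4.0.16, under R 4.3.3), after filterByExpr and TMM scaling, with Benjamini-Hochberg adjustment over 14255 genes and a threshold of 0.05. CPM uses the TMM-scaled library size, errors are SD (n = 3) or the standard error of the log2 fold change, and intervals and the floor of 3 counts cover counting error only. DESeq2 1.42.0, limma 3.58.1 on log2 RPKM and leaving out each library were alternatives. Members and lists were chosen with earlier results of these data known. Values of every library are given for receptors, transcription factors, immunoproteasome genes and members past 2-fold in some comparison; pathway genes were named by adjusted p against CONTROL, up to 3 per list and direction, except where stated. The fitting procedure was tested on simulated data. Samples with the same replicate number did not in general deviate together, although replicate 1 of APC and of SW480 had a correlation of 0.314 in their deviations. Some pathway genes are not reported here.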

Additional observations from a re-analysis of the deposited data

How the results depend on the processing

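Counts of called members kept within 1.5 times the reported counts under RLE size factors, DESeq2, no filter on low counts, summed transcripts, limma on log2 RPKM with either pseudocount, fits restricted to the groups compared and every left-out library. The exception was a test against a minimum fold of 2: members called higher were 16 in APC against CONTROL, 18 in APC against SW480 and 1 in CONTROL against SW480, and members called lower were 4 in APC against SW480 and 1 in CONTROL against SW480. Without 1 library at a time, the APC against CONTROL counts ranged from 32 to 33 higher and stayed at 7 lower. The APC against SW480 counts ranged from 34 to 35 higher and 8 to 9 lower, and the CONTROL against SW480 counts from 16 to 19 higher and 7 to 9 lower. With the replicate number as a block, the counts were 32 and 7, 34 and 9, and 18 and 9, higher and lower in the same order of comparisons; same-numbered libraries had correlations of −0.179 to 0.314 in their deviations from the group means, and 2 of 9 correlated best with their own number, so the numbers were not taken as pairs. Of 2373 values over the 44 tested members, 3 comparisons and 18 alternatives, 2279 stayed on their side of the threshold, 91 no longer passed (64 of them against the minimum fold), 3 newly passed and 0 called values changed sign. Between APC and either other line, outside the minimum fold, the calls lost among these members were HERC5 against CONTROL (without CONTROL replicate 3), USP18 against SW480 (without SW480 replicate 1) and ISG20 against SW480 (without any of 4 libraries, with DESeq2 and with summed transcripts). With limma on log2(RPKM + 1), GBP1 had log2 differences of 2.49 in APC against CONTROL and 2.62 in APC against SW480, and IFIT2 0.80 and OAS2 −1.44 against CONTROL, smaller than in edgeR because the pseudocount exceeds their levels in the lower groups. Members with few counts per library in some group are limited by depth. Among them are GBP1, IFIT1 and IFIT2 in CONTROL and SW480, IFI16 in SW480, GBP2, OASL, HERC5 and those below the filter. In APC the low levels of IFI27 (15, 15 and 7 counts) and OAS2 (20, 15 and 16 counts) are limited in the same way.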
